A study of Mus musculus with 8 samples.

Results

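The genes described here are 39 genes of the cell cycle and of adult neurogenesis, chosen by name and found on the array through 85 of its 56605 probes. They comprised 8 genes of replication licensing and S phase, 5 G1 cyclins and kinases, 12 genes of G2 and mitosis, 3 CDK inhibitors, 6 stem and progenitor genes and 5 newborn neuron genes. RNA was taken from cerebral cortex with striatum, from 4 males of BTBR/R and 4 males of B6, and each mouse had an array of its own. BTBR/R is the BTBRTF/ArtRbrc line kept in Japan, a mouse strain studied for autism-like behavior that carries the spontaneous alleles T (brachyury), tufted (Itpr3 tf) and black and tan. B6 is C57BL/6J, the reference strain, so the strains differ across the whole genome and not only at those alleles. All B6 mice and 3 BTBR/R mice were 4 months old, and BTBR/R replicate 1 was 6 months old. All 8 cortex genes and all 9 striatum genes checked were well above background on all 8 arrays, as were 28547 of the 56605 probes. No other brain region was compared, so this does not test the labelled tissue.

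A dividing cell commits to the cycle in G1, when D-type cyclins activate Cdk4 and Cdk6, and E2F factors then switch on the genes of S phase. Cyclin A and B with Cdk1 drive G2 and mitosis, and CDK inhibitors hold the cyclin-dependent kinases in check. Few cells divide in the adult forebrain. They are mostly oligodendrocyte progenitors, spread through the tissue, and the stem cells and their progeny in the subventricular zone along the striatum, which give rise to newborn neurons marked by doublecortin. Several of these genes are also made by cells that no longer divide, such as Ccnd2, Tubb3 and Sox2.

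Each value below is a scaled signal, the log2 of the processed spot signal less the array's own 75th percentile, so that 0 is the signal at that percentile. A difference is BTBR/R minus B6 on that log2 scale. A probe passed at a limma adjusted p under 0.05, with Benjamini-Hochberg adjustment over all 56605 probes, and was called if it also changed at least 2-fold. Each gene was read from its brightest probe unless another is named, and signals were not compared between probes. The B6 arrays detected 64.5% to 66.8% of all probes and the BTBR/R arrays 53.5% to 57.2%, with a lowest detected signal of 14.5 to 17.8 in B6 and 36.1 to 47.1 in BTBR/R. All 8 arrays lay on a single slide, B6 in its first column and BTBR/R in its second, so strain and position cannot be told apart.

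Between the strains most of these genes were close in signal. The exceptions were cyclin D1 (Ccnd1), the inhibitors Cdkn1b and Cdkn2c, the replication clamp Pcna and the transcription factor Sox11, which were lower in BTBR/R (Sox11 by a probe annotated on the strand opposite to the gene, with its other probes differing), and the inhibitor Cdkn1a and the cyclins Ccnb2 and Ccna2, which were higher. The brightest probe was well above background on all 8 arrays for 31 of the 39 genes. Among these 31, 3 passed as higher in BTBR/R, 5 passed as lower and 23 did not pass. That is 25.8% in all, against 26.9% (13.0% higher and 13.9% lower) of the 28547 probes detected on all 8 arrays, so the share that passed was near the background. Only Ccnd1 was called, as lower, against 2.2% of those probes in either direction and 1.16% as lower. The signals of the strains did not overlap for 9 of the 31 genes, or for 32.6% of those probes, and the median difference was -0.0037 against 0.0015.

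**Figure D1:**
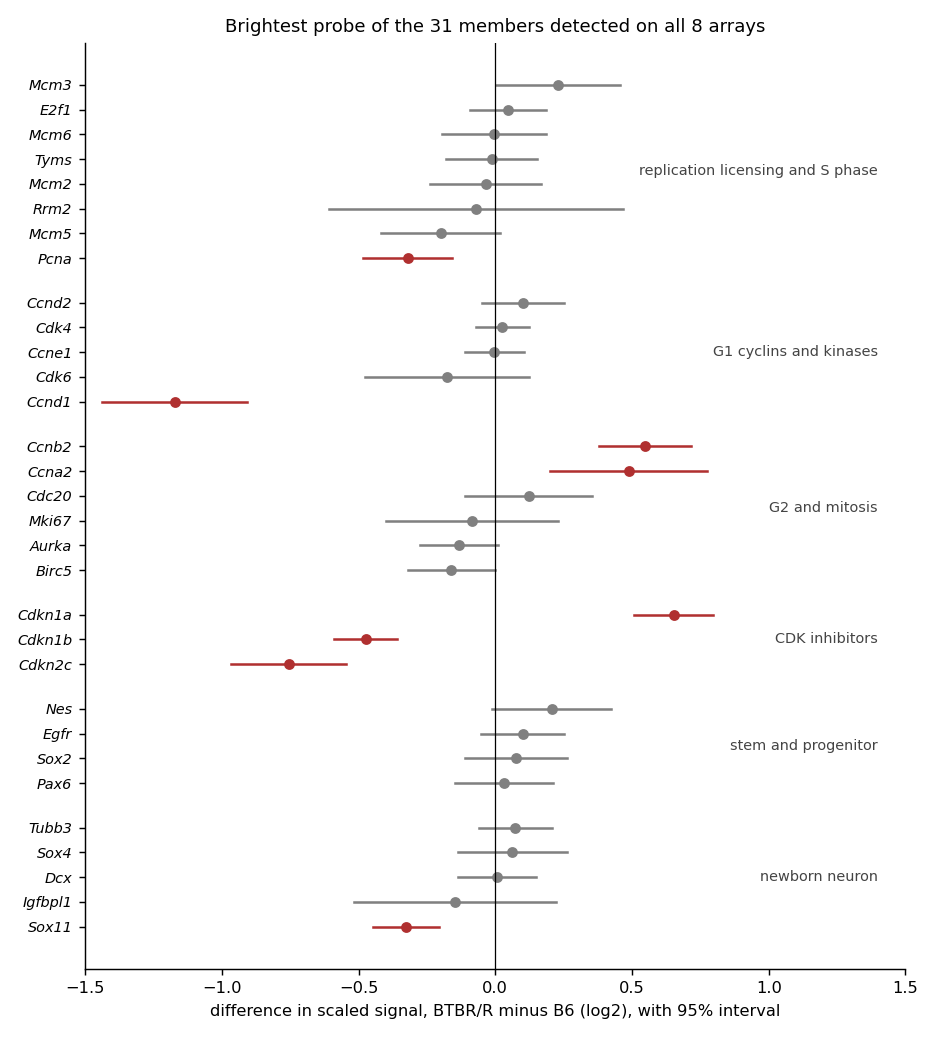
The difference in scaled signal between BTBR/R and B6 (log2, x axis) for the 31 genes whose brightest probe was detected on all 8 arrays, grouped by role; points are the limma estimates (4 mice per strain), lines their 95% intervals, and red marks the 8 genes that passed. The points run from -1.17 for Ccnd1 to 0.65 for Cdkn1a, and all 3 CDK inhibitors stand away from 0, whereas no stem and progenitor gene does.

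Of the 8 replication genes, 1 was lower in BTBR/R and 7 did not pass. Pcna, the sliding clamp that holds DNA polymerase on its template, read 2.38, 2.46, 2.32 and 2.42 in B6 replicates 1 to 4, and 2.16, 1.91, 2.08 and 2.15 in BTBR/R replicates 1 to 4. Every BTBR/R mouse lay below every B6 mouse, with a difference of -0.32 ± 0.07 (SE, n = 4 per strain, limma adjusted p = 0.00879). Scaled on the spike-in controls, the difference was -0.21 and did not pass (limma adjusted p = 0.147).

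The helicase subunits Mcm2, Mcm5 and Mcm6, which are loaded on origins before replication, differed by -0.04 ± 0.09, -0.20 ± 0.09 and -0.0047 ± 0.08 (SE), and none of them passed. E2f1, the activator of S phase genes, differed by 0.05 with a 95% interval from -0.09 to 0.18. Tyms, which makes thymidylate for DNA synthesis, differed by -0.013, with an interval from -0.18 to 0.15. The wide interval of the ribonucleotide reductase subunit Rrm2, from -0.61 to 0.47 around -0.07, went with a single mouse. Its BTBR/R signals were -2.09, -2.20, -1.12 and -1.96, with replicate 3 far above the other mice of both strains, and without that mouse Rrm2 was lower by 0.31 and passed (-0.31, limma adjusted p = 0.0317). A second, dimmer probe of Tyms likewise had a single high BTBR/R mouse, replicate 2, at -0.34 against -2.66 to -1.96 in the other BTBR/R mice.

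Mcm3, another subunit of the replicative helicase, gave opposite answers from neighboring probes. Its 3 probes detected on all 8 arrays lie within 206 bases on the minus strand of chromosome 1 (mm9), in order along the gene: an upstream probe at chr1:20793265-20793324, a middle probe at chr1:20793159-20793218, which is the brightest, and a downstream probe at chr1:20793119-20793178. The array design assigns the downstream probe to a different transcript from the upstream and middle probes. The middle and downstream probes share 20 bases, in capitals below, and 30 bases of each 60-base probe are shown because the finding turns on which stretch was read.
Mcm3 upstream probe, bases 1 to 30: tgatttgagctgtgtttctgggcacagctg
Mcm3 middle probe, bases 31 to 60: ggattggagaAAGCTTTCTTTGCGATTAGA
Mcm3 downstream probe, bases 1 to 30: AAGCTTTCTTTGCGATTAGActagtatgta

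The upstream probe read -1.85, -1.71, -1.81 and -1.83 in B6 and -2.03, -2.27, -2.33 and -2.14 in BTBR/R, so that all BTBR/R mice were below all B6 mice (-0.39 ± 0.08, limma adjusted p = 0.00522). The downstream probe read -1.98, -1.91, -1.95 and -2.12 in B6 and -1.41, -1.45, -1.55 and -1.54 in BTBR/R, so that all BTBR/R mice were above (0.50 ± 0.06, limma adjusted p = 0.000488). The middle probe lay between them and did not pass (0.23 ± 0.10, limma adjusted p = 0.100). The strain difference of the middle probe exceeded that of the upstream probe by 0.62 ± 0.07 in a limma fit on probe pairs (adjusted p = 0.000432 over 9690 pairs), and that of the downstream probe exceeded the middle one by 0.27 without passing (adjusted p = 0.0568). With the spike-in scaling the upstream probe no longer passed (-0.28, limma adjusted p = 0.0694). No single direction can thus be given for Mcm3 from these probes. The BTBR/R sequence under these and the other probes was not analysed here.

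Among the G1 genes, Ccnd1 alone passed by its brightest probe, and it had the largest difference of the 31 genes. Ccnd1 encodes cyclin D1, which joins Cdk4 and Cdk6 when growth signals call a cell into the cycle. It was read by a single probe, at chr7:152116202-152116261 (mm9, minus strand), whose first 30 bases are shown to identify what was measured.
Ccnd1 probe, bases 1 to 30: ttaatctgttaggttctagtgttccgtctt

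Ccnd1 read 1.60, 1.89, 1.58 and 1.64 in B6 and 0.32, 0.72, 0.61 and 0.37 in BTBR/R. The lowest B6 mouse stood well above the highest BTBR/R mouse, and the mean fell from 1.68 to 0.50, a 2.25-fold lower signal (-1.17 ± 0.11, limma adjusted p = 9.88e-05). Across the 20 other settings tried, the difference ranged from -1.24 to -1.06 and passed in each. In bulk tissue, fewer cells of a type and less RNA per cell cannot be told apart. Some marker genes of glial and vascular types were lower in BTBR/R beside Ccnd1, where 13.9% of the probes detected on all 8 arrays passed as lower. Of 12 microglia markers 7 passed as lower and 1 as higher, and their summed linear signal was 198 to 215 in B6 and 177 to 190 in BTBR/R. The 1 called among them was C1qb, a chain of complement C1q, at 1.69 to 1.86 in B6 and 0.29 to 0.45 in BTBR/R (-1.42 ± 0.06, limma adjusted p = 8.42e-06). Of 8 astrocyte markers 5 passed as lower (summed signal 395 to 441 against 330 to 369), as did 4 of 8 endothelial markers (32.8 to 37.6 against 27.0 to 29.9). Oligodendrocyte progenitor markers overlapped, at 22.8 to 26.3 against 22.9 to 26.8. Of the 11, 10 were detected on all 8 arrays, and 2 of these passed as higher, where 13.0% of such probes did. All microglia, astrocyte and endothelial markers were detected on all 8 arrays, and their part in the difference of Ccnd1 was not tested.

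The other G1 genes did not pass by their brightest probes. Cdk4, the kinase partner of cyclin D, was read by 4 probes, and all 4 lay between -0.02 and 0.08, with the brightest at 0.03 (95% interval -0.07 to 0.12). Ccne1, cyclin E1, differed by -0.0037 (-0.11 to 0.10). Cdk6, the second kinase of cyclin D, differed by -0.18 (-0.48 to 0.12). None of these intervals reaches a 2-fold change in either direction.

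Ccnd2, the D-type cyclin most used by neural progenitors, depended on the probe. Its brightest probe read 3.65 to 3.83 in B6 and 3.75 to 3.90 in BTBR/R and did not pass (0.10 ± 0.06, limma adjusted p = 0.256). Another probe lies nearer the gene's end, at chr6:127075412-127075471 (mm9), and the array design assigns it to a different transcript. It read 2.05, 2.19, 2.28 and 2.39 in B6 and 2.52, 2.54, 2.79 and 2.76 in BTBR/R, with no overlap (0.42 ± 0.10, limma adjusted p = 0.0122). These probes differed in their strain difference by 0.32 ± 0.07 (limma adjusted p = 0.00859), and a further probe gave 0.15 and did not pass.

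Of the 12 genes of G2 and mitosis, 6 had a brightest probe detected on all 8 arrays, and 2 of these were higher in BTBR/R. Both are cyclins that rise late in the cycle. Ccnb2, cyclin B2, read -2.26, -2.17, -2.00 and -2.00 in B6 and -1.49, -1.56, -1.59 and -1.60 in BTBR/R, without overlap (0.55 ± 0.07, limma adjusted p = 0.000606). Ccna2, cyclin A2, read -2.61, -2.38, -2.57 and -2.88 in B6 and -2.09, -1.92, -2.24 and -2.24 in BTBR/R, also without overlap (0.49 ± 0.12, limma adjusted p = 0.0164). With a floor set at the highest detection limit the difference of Ccna2 was still 0.49 and its limma adjusted p was 0.0554. A dimmer Ccna2 probe, detected on the B6 arrays alone, gave 0.23 and did not pass.

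The other 4 mitotic genes detected on all 8 arrays did not pass. Mki67, the antigen Ki-67 found in all cycling cells, read -2.43, -2.33, -2.48 and -2.53 in B6 and -2.25, -2.38, -2.87 and -2.60 in BTBR/R, with the BTBR/R mice on both sides of B6 (-0.08, 95% interval -0.40 to 0.23). Aurka, the spindle pole kinase, differed by -0.13 (-0.27 to 0.01) and Cdc20, the activator of the anaphase-promoting complex, by 0.12 (-0.11 to 0.36). Birc5, survivin, differed by -0.16 with strains that did not overlap, at -1.69 to -1.65 in B6 and -1.96 to -1.71 in BTBR/R, but did not pass (limma adjusted p = 0.101), and without BTBR/R replicate 2 it did (-0.20, limma adjusted p = 0.0439). A second Cdc20 probe had a single high mouse, BTBR/R replicate 3 at -0.84 against -2.87 to -2.45 in the other BTBR/R mice. That is the mouse in which Rrm2 was high. Its signal by the brightest Cdc20 probe, -2.04, lay between those of other BTBR/R mice, at -2.14 and -1.71. For Mki67 and Aurka, that mouse was the lowest of the BTBR/R mice.

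The other 6 mitotic genes were too dim for a comparison. Cdk1, the mitotic kinase itself, the spindle checkpoint kinase Bub1 and the kinase Aurkb had no probe above background on any array. Cdk1 read -7.41 to -6.83 in B6 and -6.10 to -5.71 in BTBR/R, and Cdk1 and Bub1 met the call rule as higher in BTBR/R (1.27 and 1.36). Of the 14874 probes detected on no array 67.7% met it in that direction, with a median difference of 1.34, so these values are not reported as changes. The brightest probes of Top2a, the DNA topoisomerase of dividing cells, Ccnb1, cyclin B1, and the checkpoint gene Bub1b were above background on every B6 array and on no BTBR/R array. Bub1b read -4.52, -3.91, -4.37 and -3.96 in B6 and -5.90 to -5.49 in BTBR/R, and met the call rule as lower (-1.47, limma adjusted p = 0.000219). The BTBR/R detection limits, at -3.97 to -3.55, lay above most of these B6 signals, so no fold can be given for Bub1b, Ccnb1 (-0.74) or Top2a (-0.39).

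**Figure D2:**
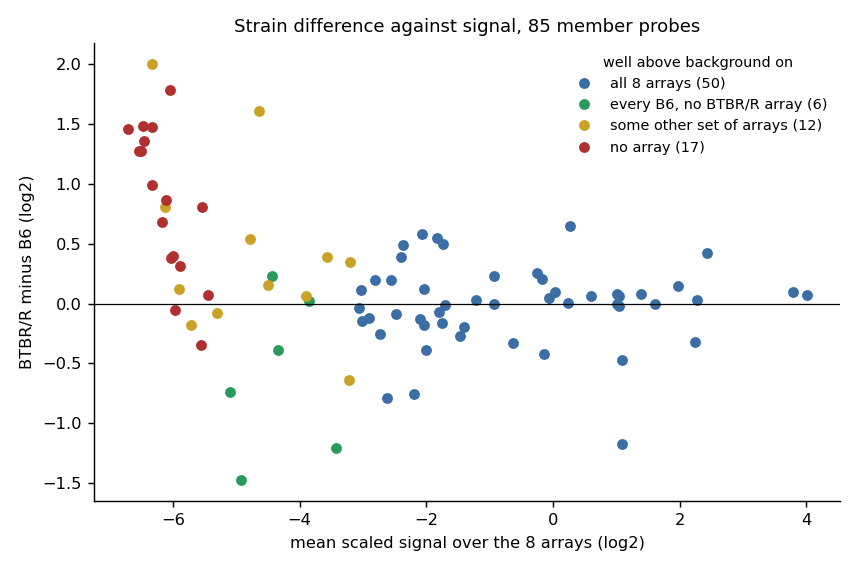
The difference in scaled signal between BTBR/R and B6 (log2, y axis) against the mean scaled signal over the 8 arrays (log2, x axis) for all 85 probes of the 39 genes, colored by the arrays on which each probe was well above background. The 17 probes detected on no array sit at the left with differences from -0.35 to 1.79, and the 50 probes detected on all 8 arrays lie between -1.17 and 0.65.

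Over all 85 probes, 9 met the call rule as higher and 3 as lower, against 20.2% and 2.27% of all probes. Of the 9 higher ones 7 were detected on no array, while that of Top2a was detected on 1 BTBR/R array and that of Cdkn1a on 1 array of each strain. Of the 50 probes detected on all 8 arrays, 5 passed as higher and 9 as lower, which is 28%, and the Ccnd1 probe was the only one called.

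Promoters of mitotic genes commonly hold CCAAT boxes, bound by the factor NF-Y, and the cell cycle homology region, a short element through which these genes are kept silent outside G2. The 300 bases around the gene start (250 before and 50 after, RefSeq, GRCm38.p6) were available for 34 of the 39 genes, without Ccnd1, Ccnd2, Ccna2, Aurkb and Igfbpl1. Searched on both strands, CCAAT stood in 9 of the 10 mitotic promoters and in 41.1% of 27025 genes, and TTTGAA, the core of the homology region, in 7 of the 10 and in 20.2% of genes. An E2F word (TTTCCCGC, TTTCGCGC, TTTGCCGC or TTTGGCGC) stood in 3 of 8 replication promoters, those of Mcm3, Mcm5 and Mcm6, and in 2.61% of genes. The words of different motifs do not contain each other. The promoter of Ccnb2, the clearest riser of the mitotic group, is shown at chr9:70421505-70421804 (GRCm38.p6, minus strand, printed 5′ to 3′ along the gene), with CCAAT and TTTGAA in capitals.
Ccnb2 promoter: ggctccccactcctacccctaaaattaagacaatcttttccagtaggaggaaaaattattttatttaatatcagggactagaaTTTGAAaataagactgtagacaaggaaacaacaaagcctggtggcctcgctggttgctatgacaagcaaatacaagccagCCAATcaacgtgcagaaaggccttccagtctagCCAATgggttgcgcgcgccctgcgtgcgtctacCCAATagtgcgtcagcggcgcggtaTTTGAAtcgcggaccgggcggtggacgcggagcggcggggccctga

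The 3 CCAAT words of Ccnb2 begin 87, 54 and 21 bases before the gene start, and a TTTGAA follows the last of them. The same words stood in Mki67 (3 CCAAT, 2 TTTGAA) and in Top2a (6 and 2), which was too dim for a comparison. Ccnb2 passed and Mki67 did not, and both held them.

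All 3 CDK inhibitors passed, in opposite directions. Cdkn1a encodes p21, which blocks cyclin-CDK complexes and is the classic target of p53. It read -0.09, -0.07, -0.08 and -0.000337 in B6 and 0.58, 0.53, 0.51 and 0.74 in BTBR/R. The strains stood clearly apart, with a 1.57-fold higher signal in BTBR/R (0.65 ± 0.06, limma adjusted p = 9.33e-05). Its other probes were dim, and only 1 of them was detected, on 1 array of each strain.

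Cdkn1b encodes p27, which holds resting cells out of the cycle. It read 1.32, 1.38, 1.30 and 1.31 in B6 and 0.84, 0.94, 0.83 and 0.80 in BTBR/R, a narrow spread within each strain and a 1.39-fold lower signal in BTBR/R (-0.47 ± 0.05, limma adjusted p = 0.000155). A second, dimmer probe was above background on all B6 arrays and on no BTBR/R array, where the detection limits were higher (-3.97 to -3.55, against -5.28 to -4.98 in B6). Its difference went from -1.20 to -0.33 with normexp, so no fold is given for it.

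Cdkn2c encodes p18, an inhibitor of Cdk4 and Cdk6. Its brightest probe read -2.02, -1.70, -1.78 and -1.78 in B6 and -2.67, -2.44, -2.67 and -2.53 in BTBR/R, a 1.69-fold lower signal without overlap (-0.76 ± 0.09, limma adjusted p = 0.000342). A second probe, which shares 40 bases with it, gave -0.79 ± 0.08 (limma adjusted p = 0.000179). These and the brightest probes of Cdkn1a and Cdkn1b passed in all 20 other settings, although with normexp the Cdkn2c differences were -0.50 and -0.39.

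**Figure D3:**
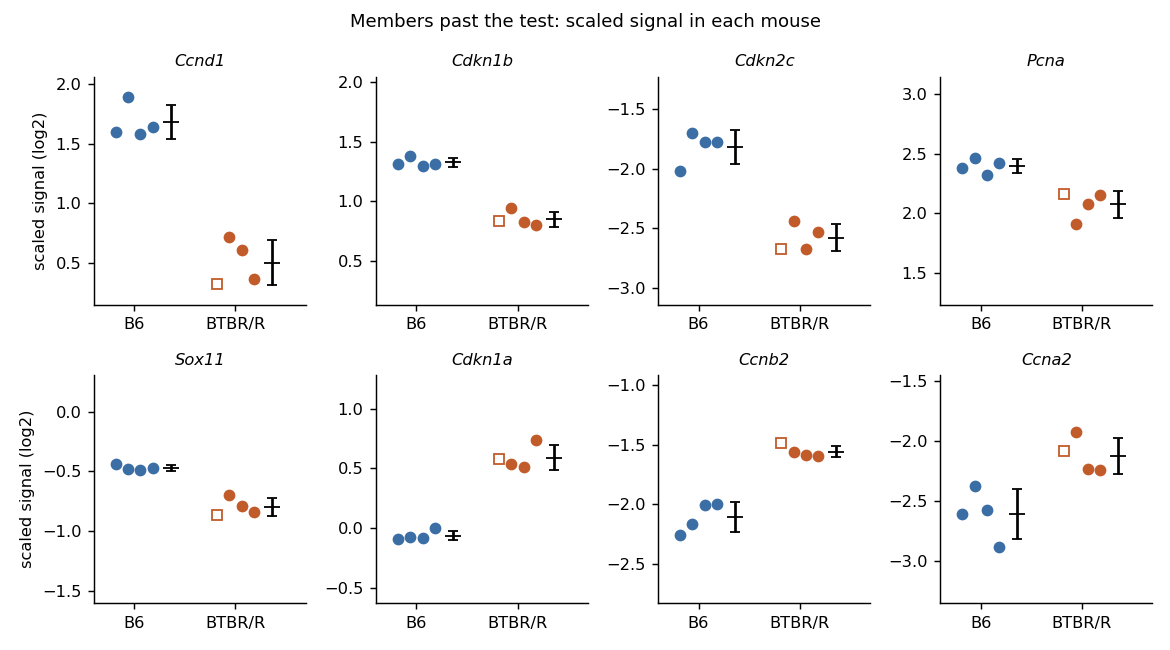
Scaled signal (log2, y axis) of the brightest probe in each mouse for the 8 genes that passed, B6 in blue and BTBR/R in orange, with the 6-month BTBR/R mouse as an open square; bars are the mean and SD (n = 4), and every panel spans the same log2 range. In all 8 panels the strains do not overlap, and the gap is widest for Ccnd1.

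None of the 6 stem and progenitor genes passed. Sox2, the factor that maintains neural stem cells and is also made by astrocytes, differed by 0.08 (95% interval -0.11 to 0.26). Pax6, a patterning factor of forebrain progenitors, differed by 0.03 (-0.15 to 0.21) and Egfr, the growth factor receptor of activated stem cells, by 0.10 (-0.05 to 0.25). Their further probes detected on all 8 arrays lay between 0.11 and 0.20 and did not pass either.

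Nes, the intermediate filament of neural stem cells, read -0.25, -0.38, -0.31 and -0.18 in B6 and -0.31, 0.07, 0.03 and -0.09 in BTBR/R. The 3 BTBR/R mice of 4 months lay above all B6 mice and the 6-month mouse within them. The difference of 0.21 did not pass with all mice (limma adjusted p = 0.122), and without the 6-month mouse it was 0.28 and passed (limma adjusted p = 0.0216). It also passed with the spike-in scaling (0.32, limma adjusted p = 0.0287). Prom1, a membrane glycoprotein of stem cells, and Eomes, the factor of intermediate progenitors, were detected on 5 and 6 of the 8 arrays, and their differences of 0.06 ± 0.20 and 0.35 ± 0.78 (SE) did not pass.

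By their brightest probes, 1 of the 5 newborn neuron genes was lower and 4 did not pass. Dcx encodes doublecortin, the microtubule protein of migrating newborn neurons. Its brightest probe, at chrX:140290854-140290913 (mm9), read 0.12, 0.23, 0.21 and 0.35 in B6 and 0.16, 0.27, 0.27 and 0.25 in BTBR/R. The strains interleaved, and the difference was 0.0061 (95% interval -0.14 to 0.15). A probe 13017 bases upstream, at chrX:140303871-140303930, which the array design assigns to a different transcript, read 0.07, 0.13, -0.02 and 0.11 in B6 and -0.45, -0.43, -0.21 and -0.32 in BTBR/R. There all BTBR/R mice were lower (-0.42 ± 0.07, limma adjusted p = 0.00211). The 30-base starts of both probes are shown because they read Dcx with different results.
Dcx brightest probe, bases 1 to 30: ataaaaagaaaagcaaaacagagatgtgcg
Dcx upstream probe, bases 1 to 30: gtcacagcaggactatttggactatggaaa

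The strain differences of these Dcx probes differed by 0.43 ± 0.07 (limma adjusted p = 0.00222). A probe still farther upstream read -2.99 to -2.79 in B6 and -3.74 to -3.21 in BTBR/R and passed (-0.64 ± 0.12, limma adjusted p = 0.00519), although it was above background on 1 BTBR/R array only, and with normexp the difference was -0.24 (limma adjusted p = 0.0372). A further Dcx probe did not pass (-0.26 ± 0.44), with B6 replicate 4 at -1.18 and the other 7 mice at -3.19 to -2.65.

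Sox11, a transcription factor of newborn neurons, was lower by its brightest probe. That probe read -0.44, -0.48, -0.49 and -0.47 in B6 and -0.86, -0.69, -0.79 and -0.84 in BTBR/R (-0.33 ± 0.05, limma adjusted p = 0.00163). It is annotated on the plus strand at chr12:28023292-28023351 (mm9), whereas the gene and its other 2 probes run on the minus strand. It was the only probe among those of the 34 genes with a known strand to run against its gene, so whether it reads Sox11 itself is uncertain. The probe at chr12:28019541-28019600 was lower too (-0.27 ± 0.07, limma adjusted p = 0.0189), but not with the spike-in scaling (-0.16, adjusted p = 0.128). The probe at chr12:28020087-28020146 did not pass (-0.0060, 95% interval -0.15 to 0.14), and its strain difference was apart from that of the brightest probe by 0.32 ± 0.07 (limma adjusted p = 0.0106).

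Tubb3, the neuronal tubulin, differed by 0.07 (95% interval -0.06 to 0.21), Sox4, a relative of Sox11, by 0.06 (-0.14 to 0.26), and Igfbpl1, a secreted protein of newborn neurons, by -0.15 (-0.52 to 0.22). A second Sox4 probe gave 0.26 and did not pass (limma adjusted p = 0.0712). In the BTBR/R group the 6-month mouse had the lowest signal of the 4 for all 5 newborn neuron genes. Over the 28547 probes detected on all arrays it was the lowest of the 4 in 23.8%, and over the 31 genes in 10. Tubb3 read 3.94 in that mouse against 4.06 to 4.08 in the others, and Sox4 0.86 against 1.12 to 1.16. Igfbpl1 read -3.30 there against -3.25 to -2.76. This mouse is the single mouse of its age, so age and the individual cannot be told apart, and the observation was made after the values were seen. Without it the differences of Dcx, Tubb3, Sox4 and Igfbpl1 were 0.03, 0.11, 0.13 and -0.075, none of which passed, and that of Sox11 was -0.31, which did.

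**Figure D4:**
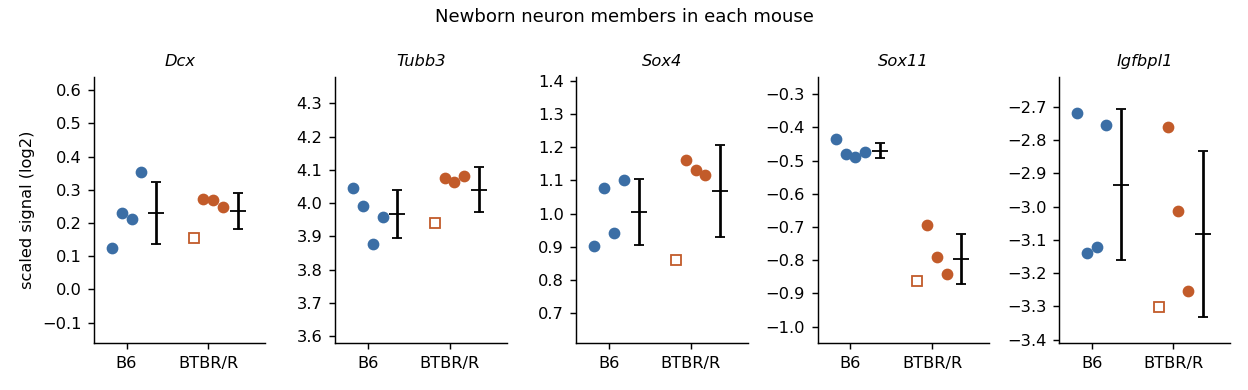
Scaled signal (log2, y axis) of the brightest probe of the 5 newborn neuron genes in each mouse, B6 in blue and BTBR/R in orange, with the 6-month BTBR/R mouse as an open square; bars are the mean and SD (n = 4), and every panel spans the same log2 range. The open square is the lowest of the BTBR/R mice in each panel, and the strains separate for Sox11 alone.

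**Figure D5:**
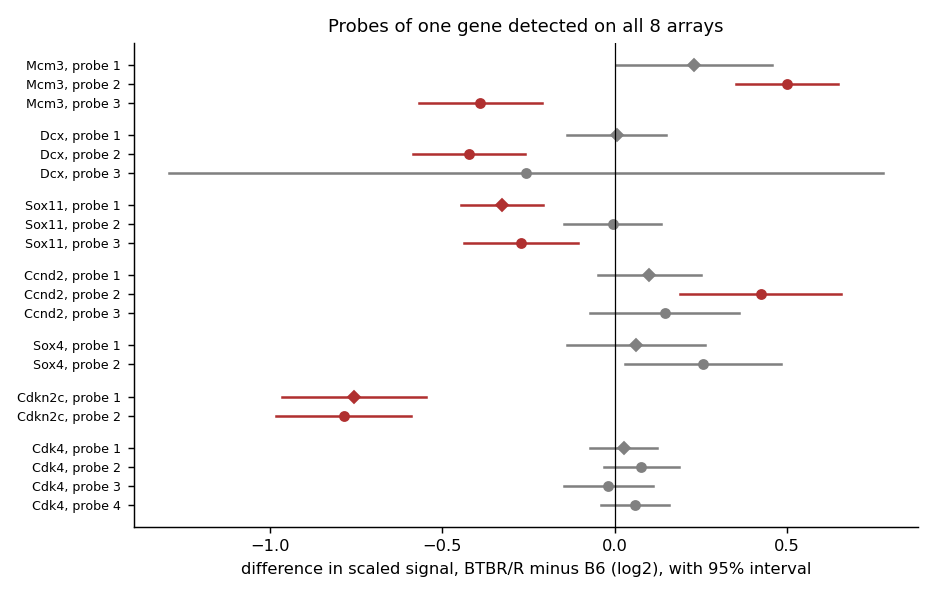
The difference in scaled signal between BTBR/R and B6 (log2, x axis) for each probe detected on all 8 arrays of 7 genes, ordered by signal within a gene; the diamond is the brightest probe, lines are 95% intervals (4 mice per strain) and red marks probes that passed. Probes of Mcm3 fall on both sides of 0, those of Dcx, Sox11 and Ccnd2 differ in size, and those of Cdkn2c and Cdk4 lie together.

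How far probes of a gene went apart was tested over 19 pairs in 11 of these genes, each pair being the brightest probe and another one detected on all 8 arrays. The strain difference passed as unequal for 4 pairs, 1 each in Mcm3, Dcx, Sox11 and Ccnd2, which is 21.1% against 18.8% of all 9690 pairs on the array. Unequal probes were thus about as common here as elsewhere on the array.

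Other genes of the same pathways were read in the same way. Of 70 further cell cycle genes, 40 were detected on all 8 arrays, of which 7 passed as higher and 4 as lower, and none was called. Among the 7 were the replication genes Mcm10 (0.45) and Lig1 (0.40), the inhibitors Cdkn1c (0.24) and Cdkn2b (0.48) and the D-type cyclin Ccnd3 (0.17). The others were E2f6 (0.38) and Mybl2 (0.36). The 4 lower genes were the origin subunit Orc6 (-0.20), the polymerase subunit Pold1 (-0.28), the retinoblastoma gene Rb1 (-0.19) and the passenger protein Cdca8 (-0.45). Their share of 27.5% was close to the 26.9% of all such probes, as it was for the 31 genes. Of the dimmer ones the kinetochore gene Nuf2, detected on every B6 array and 1 BTBR/R array, was called as lower in BTBR/R (-1.44, limma adjusted p = 0.000194). With normexp it passed without reaching 2-fold (-0.76).

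Of 54 further neurogenesis genes, 49 were detected on all 8 arrays, of which 4 passed as higher and 7 as lower, and 3 of the latter were called. The share that passed was 22.4% against 26.9% of all such probes, and the share of such probes called as lower was 1.16%. Thbs4, a matrix protein of subventricular astrocytes, read 0.10 to 0.61 in B6 and -1.48 to -1.12 in BTBR/R (-1.68 ± 0.13, limma adjusted p = 2.9e-05). Id4, an inhibitor of differentiation in stem cells, read 1.49 to 1.65 and 0.32 to 0.68 (-1.13 ± 0.09). Notch1, a receptor that keeps neural stem cells undifferentiated, read -0.05 to 0.60 and -1.04 to -0.61 (-1.00 ± 0.16). In all 3 the strains stood apart. Notch1 lay at the edge of 2-fold and passed without being called under normexp (-0.81), quantile normalization, the spike-in scaling (-0.89) and on leaving out B6 replicate 3 (-0.88) and, among the BTBR/R mice, replicate 3 (-0.98) and replicate 4 (-0.92), whereas Thbs4 and Id4 were called in all 20 other settings. Id1, a relative of Id4, was lower by 0.88 on the log2 scale (-0.88) without reaching 2-fold. Beside them, Foxj1 and Tmem212 were the 2 of 12 ependymal and choroid plexus markers that passed, both lower (-0.81 and -1.34, the latter -0.78 under normexp). That is 16.7%, near the 13.9% of probes detected on all 8 arrays that passed as lower. The summed signals of the 12 markers were 5.71 to 46.3 in B6 and 9.39 to 28.7 in BTBR/R. Of the astrocyte markers, 5 of 8 passed as lower, as given above. The part of either cell type in these differences was not tested.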

How the data were processed

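RNA of each mouse was labeled and hybridized to an Agilent SurePrint G3 Mouse array in 1 color. The authors deposited, from Agilent Feature Extraction 10.7.3.1, the processed signal intensity of each spot, which is background subtracted and detrended, with raw intensities and flags, and a table of log2 values. Those log2 values, scaled by the authors, differed from log2 of the processed signal by 1 constant for each array, to within 0.01, for at least 99.97% of the values of an array.

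Of the 62976 spots, controls and those flagged as outliers were dropped. Repeated spots (10 for each of 300 probes) were averaged, which left 56605 probes. Mice were grouped by the strain in their labels. BTBR/R was tested against B6 by lmFit and eBayes of limma 3.58.1 (R 4.3.3), and p-values were adjusted over all probes by the Benjamini-Hochberg method. Detection was the flag for spots well above background, no spot of a probe was saturated, and 8 arrays limit the precision. Summaries and plots were made in Python 3.11.15 (pandas 2.3.3, numpy 2.4.6, matplotlib 3.10.9), and the fit was tested on simulated data.

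All members were named, by the brightest probe and by others where they disagreed. Of each other list the called genes detected on all 8 arrays were named, at most 5 per direction. Nuf2, Id1 and the genes that passed without being called were named after their values were seen. The members and lists were chosen with earlier results of these data known. Lists of dentate granule neuron markers (6 genes, 2 of 4 detected on all 8 arrays lower), cortex markers (1 higher and 1 lower of 8) and striatum markers (1 lower of 9, Pde10a, called at -1.07 but not with the spike-in scaling, at -0.96) were also read. Alternatives covered background correction, scaling, the authors' values, filters, a floor, the test, a block on mouse number, and each mouse left out. Probe coordinates are those of the files (mm9).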

Additional observations from a re-analysis of the deposited data

Results flagged for a closer look

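In 10 of the 109 groups of 4 arrays examined for these genes, a single mouse lay far from the other 3 of its strain, where chance alone gives about 1 in 20. Only probes detected on all 4 arrays of that strain were examined. Values are scaled signals (log2), each set beside those of the other mice of the strain.

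In the BTBR/R group the 6-month mouse, replicate 1, was low for 2 newborn neuron genes, at 3.94 for Tubb3, where the next mouse read 4.06, and at 0.862 for Sox4, where the next mouse read 1.12. BTBR/R replicate 3 read 1.35 for the second brightest probe of Cdk4, where the next mouse read 1.45. BTBR/R replicate 4 read -2.79 for the second probe of Cdkn2c, where the next read -3.08, and remained below every B6 mouse.

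Among the B6 mice, replicate 4 stood high for E2f1 at 0.0236 (next -0.119), for Cdkn1a at -0.000337 (next -0.0746) and for the dimmest Dcx probe detected on all 8 arrays at -1.18 (next -2.94). B6 replicate 3 stood low for Cdc20 at -2.22 (next -2.07) and for Aurka at -2.14 (next -2.01). B6 replicate 1 stood low for the dimmest detected probe of Egfr, at -3.32 (next -3.03). Cdkn1a and both probes of Cdkn2c passed without each mouse in turn.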

How the results depend on the processing

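The 31 brightest probes detected on all 8 arrays and the other probes that passed and were detected on every B6 array, 41 in all, were followed through 20 alternatives, which gave 816 values. Other member probes were not followed one by one. Of the values 768 kept their direction and their side of the threshold, 8 no longer passed, 6 came to pass and 34 changed sign. The alternative limited to probes detected on all 8 arrays was chosen after seeing the data.

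All changes of sign were in probes that did not pass. With the normexp background correction the differences were 0.11 for Mcm2, 0.059 for Rrm2, 0.039 for Tyms, 0.048 for Mki67, -0.011 for Pax6 and 0.013 for Igfbpl1. With the spike-in scaling, which moved the median of the detected probes from 0.0015 to 0.11, they were 0.075 for Mcm2, 0.11 for Mcm6, 0.040 for Rrm2, 0.097 for Tyms, 0.11 for Ccne1 and 0.026 for Mki67. Median scaling gave -0.0023 for Cdk4 and -0.022 for Dcx, and the percentile of detected probes gave -0.00614 for Dcx. Leaving out 1 mouse in turn gave ranges of -0.074 to 0.029 for Mcm2, -0.060 to 0.026 for Mcm6, -0.31 to 0.049 for Rrm2, -0.059 to 0.028 for Tyms, -0.022 to 0.017 for Ccne1, -0.18 to 0.031 for Mki67, -0.00679 to 0.0821 for Pax6 and -0.029 to 0.047 for Dcx.

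The following no longer passed: Pcna, the upstream Mcm3 probe and the Sox11 probe at chr12:28019541-28019600 with the spike-in scaling, Ccna2, Ccnb1 and Bub1b with the floor, and Ccnb1 with quantile normalization (-0.96, limma adjusted p = 0.0539). The same Sox11 probe also did not pass with the replicate block (limma adjusted p = 0.0665). The brightest probe of Ccnd2 passed with normexp (0.19, limma adjusted p = 0.0392) and that of Mcm3 without BTBR/R replicate 2 (0.29, limma adjusted p = 0.0434).

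The 2 genes called higher, both below background, became 0 under normexp, quantile normalization, the floor and both filters, and the 2 called lower became 1 under normexp, the floor and the filter to all 8 arrays. Genes passing as higher went from 5 to 3 under quantile normalization and both filters, and to 2 with the floor. Probes called higher went from 9 to 1 under quantile normalization and to 0 under normexp, the floor and both filters, and probes called lower from 3 to 1 under normexp, the floor and the filter to all 8 arrays. Over the whole array 11413 probes were called higher and 1284 lower. The higher count became 231 under normexp, 544 under quantile normalization, 362 for probes detected on every array of a strain, 276 with the floor and 300 for probes detected on all 8 arrays. The lower count became 332, 513 with the floor and 331 for probes detected on all 8 arrays. Of the other cell cycle genes, the 2 called higher (Ttk and Kif11, each above background on 1 array) became 0 under normexp, quantile normalization, the floor, both filters and the replicate block, 1 with the percentile of detected probes and with the methods' test, and 0 to 1 whichever mouse was left out. The 1 called lower became 0 under normexp and the filter to all 8 arrays, and was 1 to 2 on leaving out a mouse (2 without B6 replicate 4 or BTBR/R replicate 1). The 1 other neurogenesis gene called higher, below background, became 0 under normexp, quantile normalization, the floor and both filters. The cause of these shifts was not tested.

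Same-numbered mice of the strains had deviations that correlated at -0.070 to 0.156 over 28547 probes, and different-numbered mice at -0.132 to 0.153. Mouse numbers were therefore not taken to pair the samples. With mouse number as a replicate block 5 genes passed as higher and 7 as lower, as without it. Beyond the Sox11 probe and the other cell cycle genes called higher, both given above, the block ended no pass among these 41 probes. Dim probes set the limit, since for 8 of the 39 genes the brightest probe was below background on at least 1 array.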
